A study of Mus musculus with 24 samples.

Results

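The soleus of 6 mice carrying a muscle PPAR transgene was compared with that of 6 non-transgenic littermates, to see which microRNAs moved the same way with either receptor. All 12 animals of the study entered the comparison, as 3 MCK-PPARa mice with 3 littermates (NTGa, line a) and 3 MCK-PPARb mice with 3 littermates (NTGb, line b). The animals were chosen by genotype label alone, and the line was kept as a block so that each transgenic group was set against its own controls. All were male and 12 weeks old. The labels describe the transgenes as muscle-specific and raising PPARα or PPARβ, and the littermates as wild-type. MCK in the names of these mice stands for muscle creatine kinase, whose promoter is active in striated muscle. Whether each line goes back to 1 founder is not given in the sources used here. RNA of each animal was read on 2 real-time PCR cards, so the 24 deposited samples were 12 animals. The cards held 584 microRNA assays, of which 268 were tested because some group had the microRNA in each of its 3 animals. The receptors' own RNA was not measured on these cards, so the genotype labels could not be checked against it.

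PPARα and PPARβ (also called PPARδ) are nuclear receptors that bind fatty acid ligands, pair with the retinoid X receptor and raise genes of fatty acid uptake and oxidation. The soleus is a postural muscle rich in slow, oxidative fibres, in which both receptors are normally present. MicroRNAs are short RNAs that lower messenger RNAs with which they pair, chiefly through the seed near the 5′ end, so microRNAs with the same seed share many predicted targets.

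The sequences that follow are those of the microRNAs on which the comparison turned, from RefSeq on build GRCm38.p6, 5′ to 3′, with the seed (bases 2 to 8) in capitals. The first 3 lines are miR-194, miR-192 and their relative miR-215, of which miR-192 and miR-194 were called. The next 4 separated the same way in both lines without being called. The last 4 carry the seed of miR-195 and show members that lay on opposite sides of 0.
miR-194: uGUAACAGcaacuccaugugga
miR-192: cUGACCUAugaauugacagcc
miR-215: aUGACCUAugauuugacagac
let-7d: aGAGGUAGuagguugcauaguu
miR-27a: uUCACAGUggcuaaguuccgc
miR-135a: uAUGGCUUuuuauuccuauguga
miR-195: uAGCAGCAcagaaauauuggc
miR-16: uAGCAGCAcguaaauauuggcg
miR-497: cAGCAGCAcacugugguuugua
miR-15a: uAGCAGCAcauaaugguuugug
miR-322: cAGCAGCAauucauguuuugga
Mature miR-194 is made from a pair of loci with the same mature sequence. One is Mir194-1 at chr1:185313325-185313346, which lies on the strand of Mir215, with hairpin starts 262 bases apart. It lies within the bounds of Iars2, whose strand was not compared. Distances between loci are between hairpin starts throughout. The other is Mir194-2 at chr19:6264658-6264679, which lies 201 bases from Mir192 on the same strand and inside no other gene of the table. The assay reads the mature strand and does not separate these loci. miR-192 lies at chr19:6264857-6264877 and miR-215 at chr1:185313610-185313630, and the seed UGACCUA is common to both. miR-185, the third microRNA called, is encoded within the bounds of Tango2, whose strand was not compared either. It has no other microRNA within 10 kb, and is given here by name.

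Between 248 and 296 microRNAs were detected per animal, that is, read at a cycle threshold (Ct) under 35. The mean was 277.5 ± 4.32 (SD, n = 6) in transgenic and 270.5 ± 16.3 in non-transgenic animals, a difference of 7 (two-sided exact permutation test within lines, p = 0.375, smallest possible p 0.005). The highest count, 296, was that of NTGb replicate 2, and without this animal the difference in detected assays per animal was 13.9 (exact p = 0.015). The lowest, 248, was that of NTGb replicate 3, and without it the difference was 1.92 (exact p = 0.79). Without any other single animal it ran from 5.17 to 8.75 (exact p from 0.28 to 0.625). The endogenous small RNA controls differed by -0.0389 Ct (exact p = 0.855). The animal least like the rest was MCK-PPARa replicate 1, whose correlation over assays with the other animals had a median of 0.933, where the others lay between 0.960 and 0.974. Of the 8 muscle-enriched microRNAs, miR-1, miR-133a, miR-133b, miR-206, miR-486 and miR-499 were detected in all 12 animals. miR-208b was detected in 3 transgenic and 6 non-transgenic animals, and miR-208 in 2 and 1. Detection alone is a weak check of the muscle label. Levels below are log2 values relative to a card's mean Ct over microRNAs that every animal had, so 1 unit is a doubling if template doubles in each cycle. Values not detected stand at a floor of -6.56 on card A and -5.66 on card B.

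In all, 3 microRNAs passed the test of the common effect (limma with line as a block, Benjamini-Hochberg adjusted p under 0.05), and these 3 were 1.12% of the 268 tested. All 3 were higher in transgenic animals: miR-194 2.01-fold, miR-192 1.75-fold and miR-185 2.48-fold. None passed as lower, where 14 reached an unadjusted p under 0.05. In both directions together 34 assays, 12.7%, reached an unadjusted p under 0.05, and the next adjusted p after the 3 calls was 0.255. All 3 were also separated in both lines, meaning that all 3 transgenic animals lay above all 3 littermates. The lines shared no control animal.

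miR-194 and miR-192 are best known from gut, liver and kidney epithelium. In line a, miR-194 stood at -0.70, -0.55 and -0.86 in MCK-PPARa against -2.17, -1.81 and -2.33 in NTGa. In line b it stood at -1.03, -1.0 and -1.60 in MCK-PPARb against -1.83, -1.71 and -1.95 in NTGb. The transgenic animals were higher in each line without overlap, with a wider gap in line a than in line b. The common effect of miR-194 was 1.01 (SE 0.20, 95% interval 0.58 to 1.44, adjusted p = 0.0356 by limma), made of 1.40 in line a and 0.62 in line b. The difference of the line effects, -0.78 (95% interval -1.51 to -0.05), did not pass its own test (adjusted p = 0.387 by limma).

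miR-192 stood at 0.40, 0.02 and 0.29 in MCK-PPARa against -0.78, -0.84 and -0.72 in NTGa. In line b it stood at -1.20, -0.80 and -0.57 in MCK-PPARb against -1.22, -1.66 and -1.50 in NTGb. The groups separated in both lines, but in line b the lowest transgenic animal and the highest littermate were almost at the same level, and all of line b lay below MCK-PPARa. The common effect of miR-192 was 0.81 (SE 0.16, 95% interval 0.45 to 1.17, adjusted p = 0.0356 by limma), with 1.01 in line a and 0.60 in line b. The line effects differed by -0.41 (95% interval -1.11 to 0.29, adjusted p = 0.699 by limma).

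miR-215, which has the seed of miR-192 and the genomic neighbour Mir194-1, was higher in line a and had no measured direction in line b. It was above the floor in MCK-PPARa at -4.05, -4.95 and -4.22, in NTGb replicate 2 at -6.39, and at the floor in the other 8 animals. Its common effect of 1.05 therefore mixes 2.16 in line a with -0.06 in line b, and did not pass (adjusted p = 0.255 by limma). Because all NTGa animals stood at the floor, the fitted size in line a depends on where the floor is set. In line b only NTGb replicate 2 was above the floor, and only just, so the -0.06 is no measured effect.

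miR-185 has been described as a regulator of cholesterol and lipid genes in liver cells. It stood at -1.43, -1.29 and -1.54 in MCK-PPARa against -2.18, -3.18 and -2.92 in NTGa. In line b it stood at -0.75, -2.01 and -2.26 in MCK-PPARb against -2.95, -3.23 and -2.68 in NTGb. The groups separated in both lines, and MCK-PPARb replicate 1 was the highest animal of all 12. The common effect of miR-185 was 1.31 (SE 0.27, 95% interval 0.73 to 1.89, adjusted p = 0.0356 by limma), with 1.34 in line a and 1.28 in line b, a difference of -0.06 (95% interval -1.29 to 1.16).

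**Figure D1:**
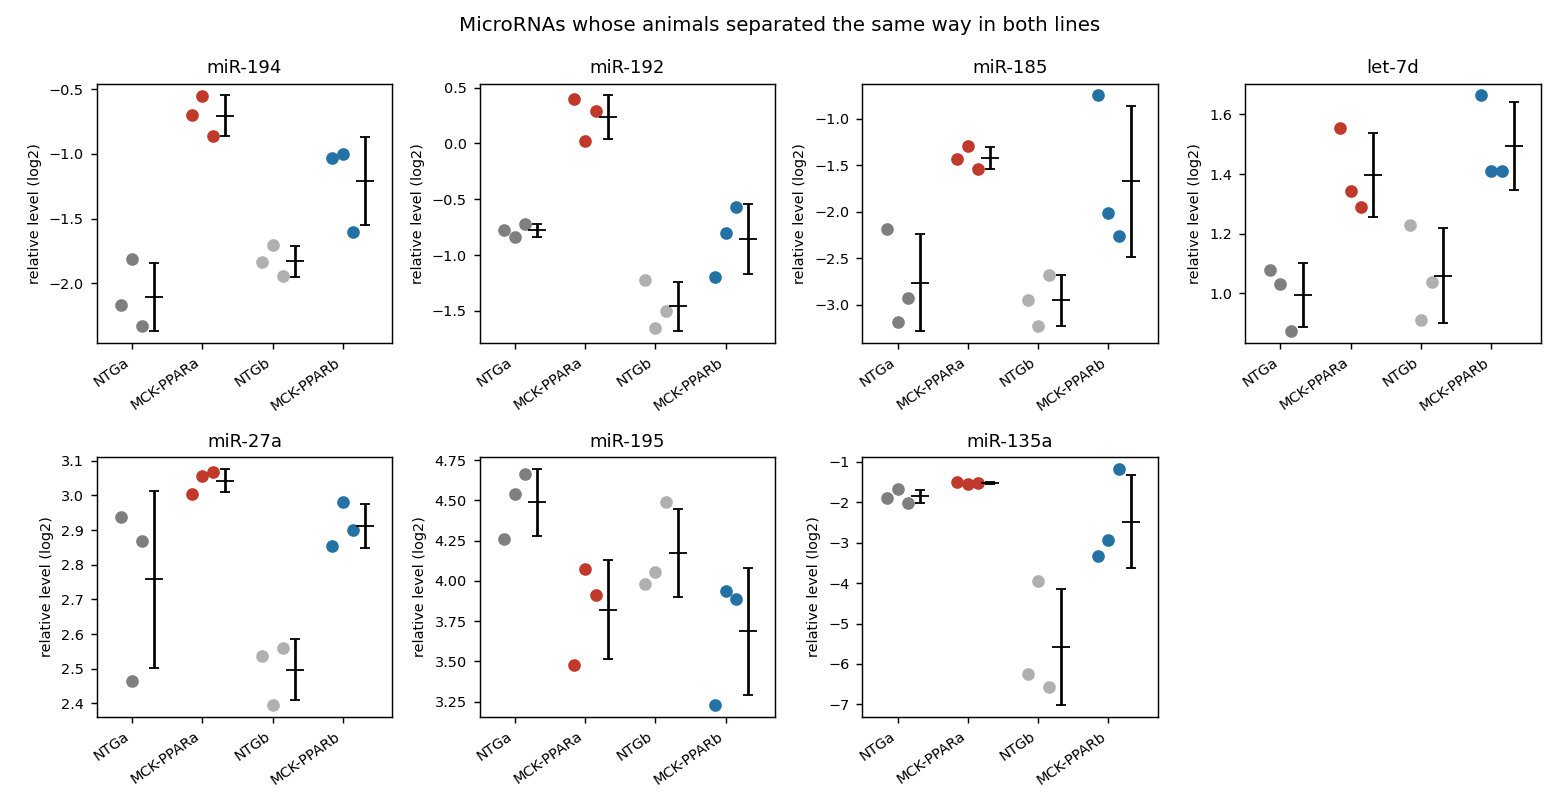
Relative level (log2) of the 7 microRNAs whose animals separated the same way in both lines, each point an animal, with the group mean and SD (n = 3) beside the points. Transgenic points lie above their own littermates in 6 panels and below them for miR-195, and each panel has its own vertical scale.

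The direction of these 3 effects held whichever animal was left out, with 0.90 to 1.13 for miR-194, 0.75 to 0.91 for miR-192 and 1.11 to 1.44 for miR-185. The calls did not hold. No microRNA was called without any 1 of NTGa replicates 1, 2 and 3, MCK-PPARa replicates 1, 2 and 3, NTGb replicates 1, 2 and 3, or MCK-PPARb replicate 2. Without MCK-PPARb replicate 1 the 1 call was miR-192, and without MCK-PPARb replicate 3 the 2 calls were miR-194 and miR-185. Over these 12 fits the adjusted p ranged from 0.0154 to 0.129 for miR-194, from 0.0322 to 0.129 for miR-192 and from 0.0328 to 0.129 for miR-185. NTGb replicate 2 had the most detected microRNAs, and MCK-PPARa replicate 1 was least like the rest by correlation. Without both of these animals the effects were 1.04 for miR-194, 0.72 for miR-192 and 1.24 for miR-185, and none was called. In separate fits of each line with 3 animals against 3, line a gave 5 calls, miR-194 among them, and line b gave 0, with 20 assays at an unadjusted p under 0.05. Under other references for scaling all 3 stayed higher, and the median, U6 and unscaled versions called none, while the endogenous controls called 2, miR-194 and miR-185.

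**Figure D2:**
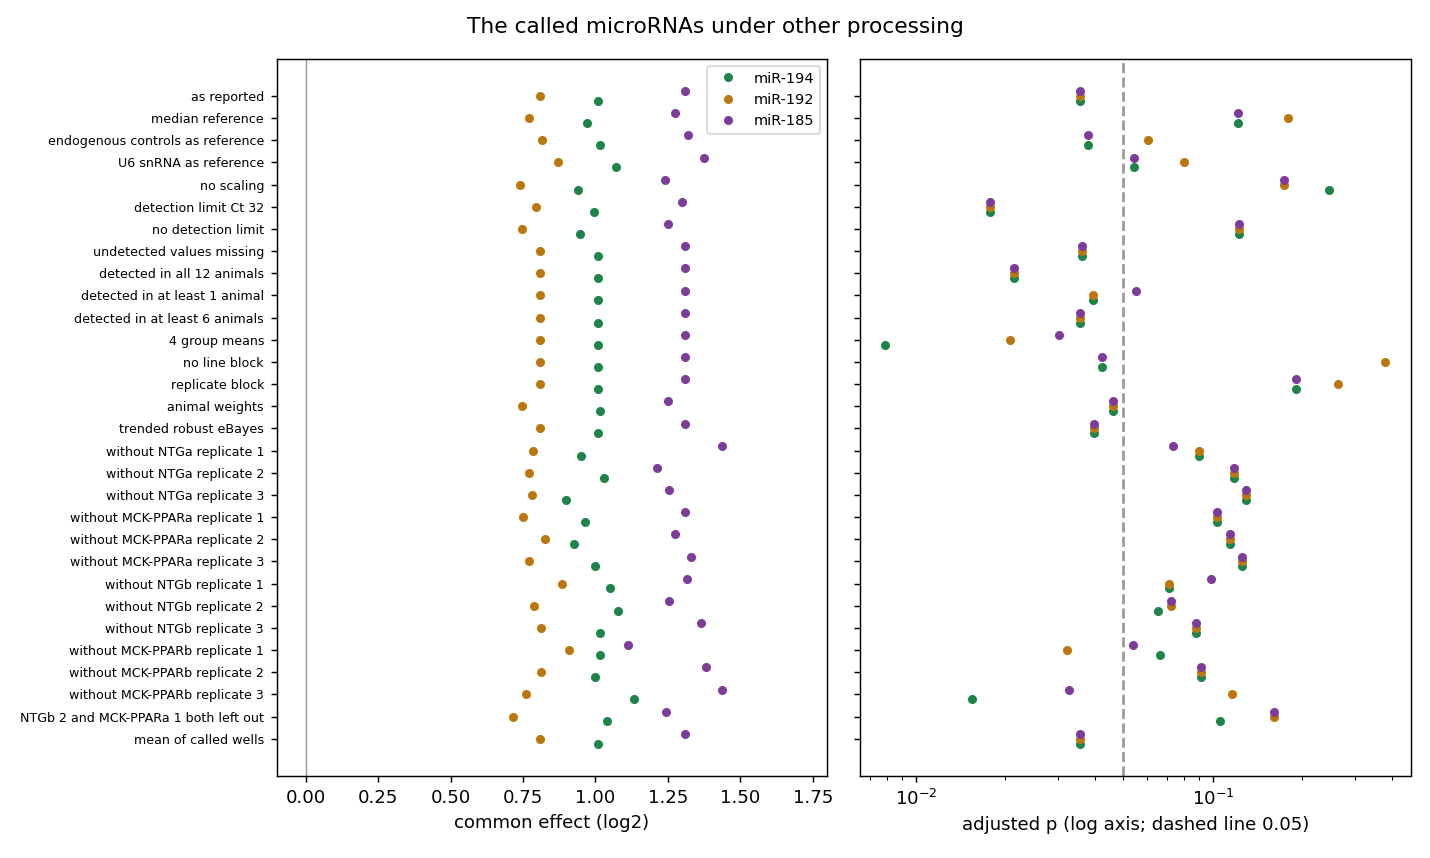
Common effect (left, log2) and adjusted p (right, log axis, dashed line at 0.05) of miR-194, miR-192 and miR-185 under each alternative that used both lines. The effects stay between 0.72 and 1.44 and on the same side of 0, while the adjusted p lies on both sides of the dashed line.

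Counting separation rather than calls, 7 of the 268 assays (2.61%) separated the same way in both lines, 6 higher and 1 lower, and 4 (1.49%) separated in opposite ways. In line a alone 69 (25.7%) separated and in line b 41 (15.3%). Beside the 3 called, the higher ones were let-7d, miR-27a and miR-135a and the lower one was miR-195. None of these passed the test.

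let-7d belongs to the let-7 family, which restrains growth-promoting genes and rises as tissues mature. It stood at 1.56, 1.34 and 1.29 in MCK-PPARa against 1.08, 1.03 and 0.87 in NTGa, and at 1.66, 1.41 and 1.41 in MCK-PPARb against 1.23, 0.91 and 1.04 in NTGb. Both transgenic groups lay above 1.23, the highest of the 6 non-transgenic animals. Its common effect was 0.42 (95% interval 0.14 to 0.70, adjusted p = 0.255 by limma), with 0.40 in line a and 0.44 in line b. It was called in 1 alternative, in which every assay detected in at least 1 animal was tested (adjusted p = 0.0395 by limma), and over the other alternatives with both lines its adjusted p reached 0.474.

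miR-27a is one of the miR-23-27-24 microRNAs, known in vessels and in fat cells. It stood at 3.01, 3.06 and 3.07 in MCK-PPARa against 2.94, 2.46 and 2.87 in NTGa, and at 2.85, 2.98 and 2.90 in MCK-PPARb against 2.54, 2.40 and 2.56 in NTGb. The gap in line a was narrow, with NTGa replicate 1 just under the transgenic animals. The common effect was 0.35 (95% interval 0.06 to 0.64, adjusted p = 0.264 by limma).

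miR-195 stood at 3.48, 4.07 and 3.91 in MCK-PPARa against 4.26, 4.54 and 4.66 in NTGa, and at 3.23, 3.94 and 3.89 in MCK-PPARb against 3.98, 4.06 and 4.49 in NTGb. It was the only assay below its littermates in all 6 transgenic animals without overlap in either line. Its common effect was -0.58 (95% interval -0.98 to -0.17, adjusted p = 0.255 by limma), with -0.67 in line a and -0.49 in line b.

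miR-135a separated in both lines with very unequal gaps. It stood at -1.51, -1.54 and -1.51 in MCK-PPARa against -1.89, -1.67 and -2.01 in NTGa, a difference of 0.34. In line b it stood at -3.33, -2.92 and -1.18 in MCK-PPARb against -6.24, -3.95 and the floor in NTGb, a difference of 3.11. The common effect of 1.72 (adjusted p = 0.255 by limma) describes neither line, and over the alternatives with both lines it ran from 0.73 to 2.49. The test of the difference between the lines gave 2.77 (adjusted p = 0.244 by limma).

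Over all tested assays, 154 (57.5%) had effects of the same sign in both lines, 90 (33.6%) higher in both and 64 (23.9%) lower in both. Of the other 114 assays, 66 were higher in line a and lower in line b, 47 the reverse, and 1 was at 0 in a line. With U6 as the reference the split became 110 higher and 29 lower in both, since that reference moved the median common effect of all assays from 0.05 to 0.19. The share of the same sign was 59.5% of 37 assays with a mean Ct under 25, 65.9% of 44 at 25 to 28, 64% of 50 at 28 to 30, 56.9% of 58 at 30 to 32 and 48.1% of 79 above that. Only 4 assays had an unadjusted p under 0.05 in the same direction in each line (miR-185, miR-192, miR-194 and miR-411), and 2 had it in opposite directions (miR-148b and rno-miR-339-3p). The median 95% interval reached 0.622 to either side of its estimate. For 151 assays (56.3%) the interval of the common effect lay within 1 unit of 0 on both sides, so a common doubling or halving lay outside it.

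**Figure D3:**
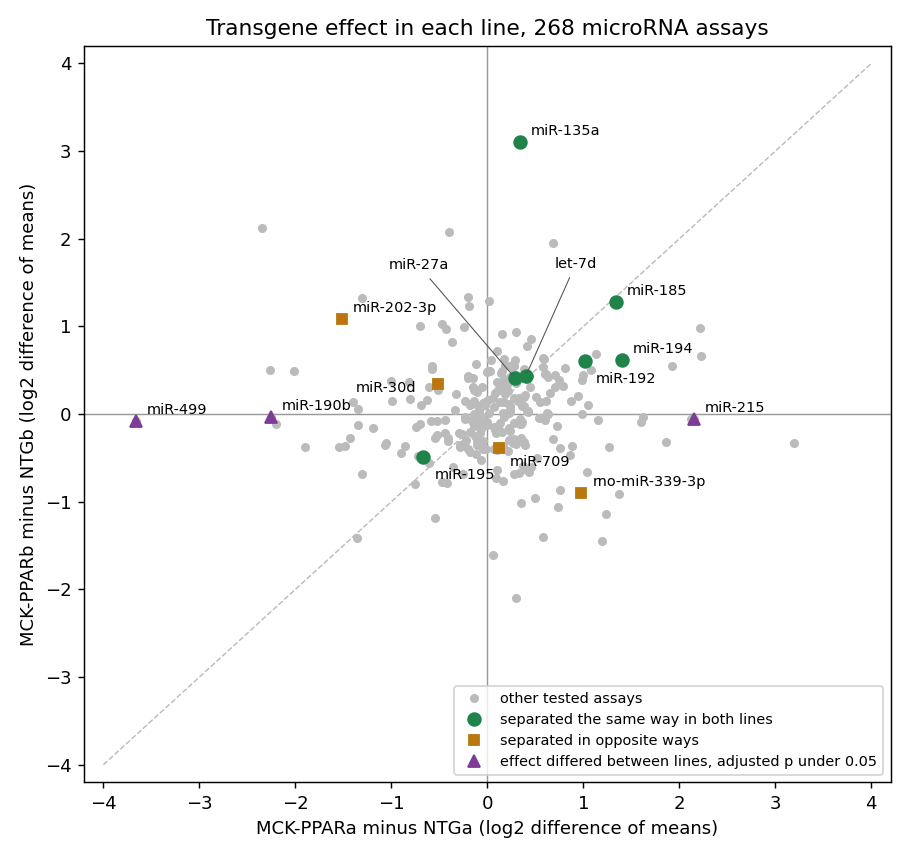
Effect of the transgene in line b (vertical, log2) against that in line a (horizontal, log2) for the 268 tested assays, with the dashed line marking equal effects. The 3 called microRNAs sit in the upper right, miR-195 in the lower left, and miR-499, miR-190b and miR-215 lie along the horizontal axis, near 0 in line b.

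The 6 microRNAs with the seed AGCAGCA split by direction, and each went the same way in both lines, as did 57.5% of all tested assays. miR-15a (0.50), miR-15b (0.38) and miR-322 (0.72) were positive, while miR-16 (-0.48), miR-195 (-0.58) and miR-497 (-0.23) were negative. None of the 6 passed the test, and the median of the list was 0.08 against 0.05 over all tested assays. These microRNAs restrain cell cycle and growth genes, and Mir195a and Mir497 lie 325 bases apart on chromosome 11. With the median reference, miR-497 no longer went the same way in both lines, which left 2 lower in both. Mir15a and Mir16-1, neighbours on chromosome 14, gave mature strands on opposite sides of 0, though mature miR-16 also comes from Mir16-2 on chromosome 3 beside Mir15b.

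All 4 tested members of the miR-23-27-24 list were higher in both lines, with none called and a median of 0.34. Over all tested assays, 33.6% were higher in both lines and 1.12% were called, with a median of 0.05. miR-24 stood between 8.28 and 8.32 in MCK-PPARa against 8.04 to 8.11 in NTGa, without overlap, and at 8.94, 8.45 and 8.65 in MCK-PPARb against 8.38, 7.74 and 8.63 in NTGb, where the groups overlapped. Its common effect was 0.33, beside 0.40 for miR-23b, 0.35 for miR-27a and 0.29 for miR-27b. miR-24-2*, the passenger strand made with miR-24 from Mir24-2, had the lowest p after the 3 calls, with 0.59 (95% interval 0.22 to 0.97, adjusted p = 0.255 by limma). Mir27a, Mir23a and Mir24-2 lie within 1 cluster, in which Mir23a starts 154 bases and Mir24-2 143 bases from Mir27a. With U6 as the reference or without scaling, 2 of the 4 were higher in both lines instead of 4.

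Of the 9 let-7 family assays with the seed GAGGUAG, 6 were higher in both lines, 0 were lower in both and none was called, with a median of 0.23. Over all tested assays the shares were 33.6%, 23.9% and 1.12%, with a median of 0.05. let-7a (0.53) and let-7d (0.42) were the furthest from 0 among those higher in both lines. Mirlet7d shares its neighbourhood with Mirlet7f-1, 1817 bases away, and Mirlet7a-1, 2167 bases away, and let-7f gave 0.23. miR-98 went apart between lines (-0.20 in line a, 1.34 in line b), as did let-7e (-0.52 and 0.28). With the median reference 3 of the 9 were higher in both lines instead of 6.

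**Figure D4:**
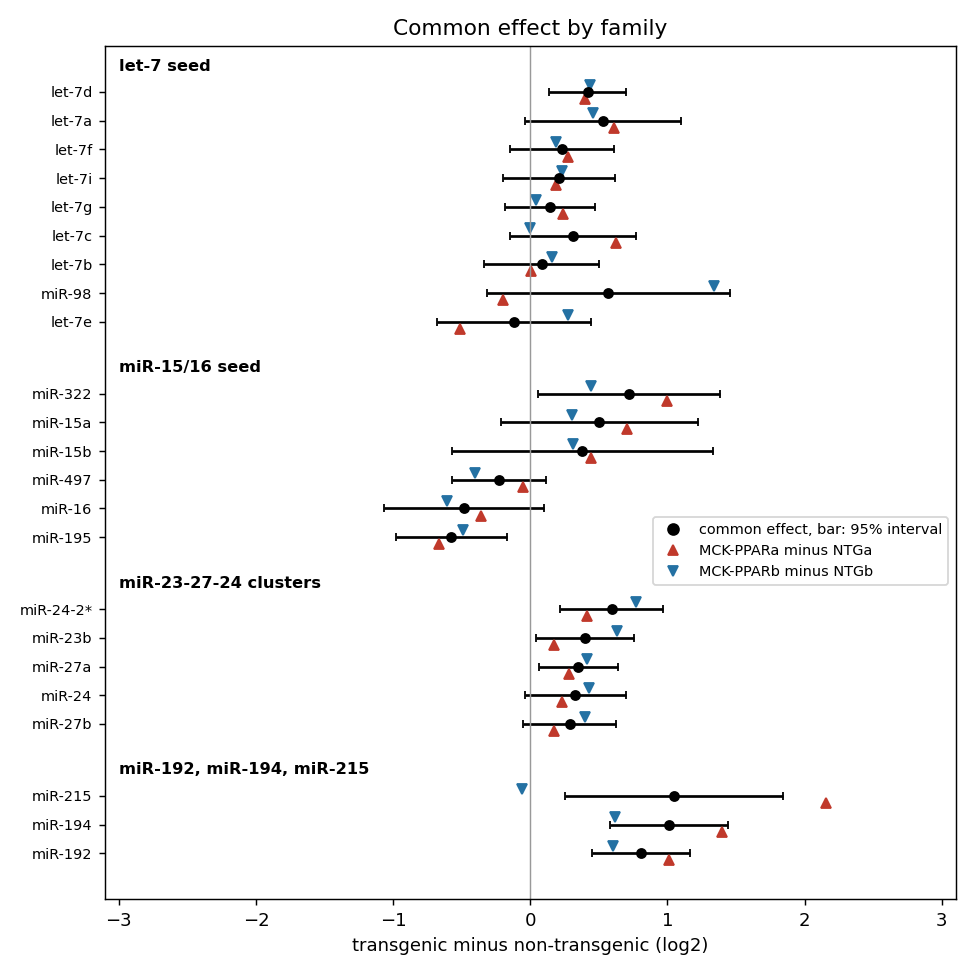
Common effect with its 95% interval (black, log2) and the effect in line a (red triangles) and line b (blue triangles) for 4 groups of related microRNAs. Members of the miR-15/16 seed group fall on both sides of 0, from 0.72 for miR-322 to -0.58 for miR-195. miR-215 shows fitted line effects of 2.16 and -0.06, with only NTGb replicate 2 above the floor in line b.

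The microRNAs of the imprinted Dlk1-Dio3 region, which are high in developing muscle and fall with age, were read by 40 assays. Of these, 19 were tested, 8 were lower in both lines, 1 was higher in both and 10 were mixed. Over all tested assays, 23.9% were lower in both lines and 33.6% higher in both. None of the 19 was called, against 1.12% of all tested assays. Their median common effect was -0.41 against 0.05 over all tested assays. Depending on the reference for scaling, 5 to 10 of the 19 were lower in both lines. miR-411 had the lowest p, standing at -0.90, -0.83 and -0.95 in MCK-PPARa against -0.09, -0.58 and 0.25 in NTGa, and at -0.57, -1.30 and -0.64 in MCK-PPARb against -0.60, 0.59 and -0.09 in NTGb. The groups separated in line a and overlapped in line b, with -0.75 and -0.80 as the line effects and -0.78 (95% interval -1.28 to -0.27, adjusted p = 0.255 by limma) as the common effect. miR-434-3p (-0.85), miR-337-3p (-0.96) and miR-136 (-0.68) were lower in both lines with larger differences in line a. The 1 higher in both lines was miR-337-5p, the partner strand of miR-337-3p. It gave 0.53, with 0.15 in line a and 0.91 in line b.

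Among 11 tested members of the miR-17-92 list and its relatives, which promote proliferation, 5 were lower in both lines, 2 higher in both and 4 mixed, with none called. Over all tested assays, 23.9% were lower in both lines and 33.6% higher in both. The split of the 11 depended on the reference, with 3 lower and 3 higher by the endogenous controls and 2 lower and 3 higher by U6. miR-20b gave -1.13, with -1.90 in line a and -0.37 in line b, miR-19a gave -1.0 and miR-106a -0.38. miR-93*, the passenger strand of miR-93, was below its littermates' mean in all 6 transgenic animals, with -0.41 (adjusted p = 0.255 by limma). The value of miR-93* was -0.12 with U6 as the reference and -0.23 without scaling. miR-181c gave -0.71 and miR-181a 0.53, each of 1 sign in both lines and neither called. Of the miR-29 microRNAs, which lower collagen genes, miR-29c gave -0.33 and miR-29a -0.05, both lower in both lines, while miR-29b was mixed. With the other references, 0 (U6) or 1 of these 3 was lower in both lines. Of the 5 miR-30 microRNAs, abundant in muscle, only miR-30e (-0.44) went the same way in both lines, though 0 did with U6, and of the 3 tested miR-148 and miR-152 microRNAs 1 did, none of them called. The rat-named assays miR-204* (-0.87) and miR-196c (-1.38) were lower in both lines and did not pass, and rno-miR-196c spread from -1.21 to 3.14 among the animals.

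Other assays higher in both lines without passing were miR-28 (0.62), miR-221 (1.60), miR-196a* (0.61) and miR-451 (0.55). miR-221 was at the floor in 2 NTGa animals, and miR-196a*, which entered the test only through MCK-PPARa, in 5 of the 12. miR-451 is the main microRNA of red blood cells and stood at -0.06, -0.74 and -1.09 in MCK-PPARa against -1.03, -0.98 and -1.61 in NTGa. In line b it stood at -0.90, -1.09 and -1.27 in MCK-PPARb against -1.31, -2.04 and -1.51 in NTGb. It was thus above the mean of its own littermates in all 6 transgenic animals and separated only in line b (adjusted p = 0.281 by limma).

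No muscle-enriched microRNA was called for the common effect. The 7 tested of 8 had a median of 0.07, 2 higher in both lines, 2 lower and 3 mixed. miR-1, which is specific to striated muscle, gave 0.07 (95% interval -0.28 to 0.42) by its mouse assay and -0.33 by its rat-named assay. miR-133a gave -0.15 (-0.58 to 0.28), miR-133b 0.14 (-0.24 to 0.51) and miR-206, a slow-muscle relative of miR-1, 0.23 (-0.14 to 0.59). A common doubling or halving lay outside each of these 95% intervals. miR-486, made inside the ankyrin gene Ank1, gave 0.68 in line a and -0.28 in line b. Over the 29 alternatives with both lines the sign of the common effect turned under 4 for miR-1 and 1 for miR-133b. With 1 animal left out, the common effect of miR-133a ran from -0.30 without NTGb replicate 2 to -0.04 without NTGb replicate 3. Without both NTGb replicate 2 and MCK-PPARa replicate 1 it was -0.36. With U6 as the reference 0 of the 7 were lower in both lines, and without scaling 1 was higher in both.

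The myosin-gene microRNAs, encoded inside myosin heavy chain genes and tied to slow fibre identity, had no common direction. miR-208b, with every MCK-PPARa animal at the floor, gave fitted values of -1.31 in line a, which depends on the floor, and 1.32 in line b. miR-499 stood at -3.99, -4.26 and -3.42 in MCK-PPARa against -0.17, -0.35 and -0.17 in NTGa, and at 0.37, 0.38 and 0.37 in MCK-PPARb against 0.93, -0.17 and 0.61 in NTGb. It was far below its littermates in line a and within the range of its littermates in line b. Its common effect of -1.87 did not pass (adjusted p = 0.255 by limma). In the fit with 4 group means, whose estimate of the spread leaves out the difference between the lines, the same value passed (adjusted p = 0.000927 by limma).

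The difference between the line effects had an adjusted p under 0.05 for 3 of the 268 assays (1.12%), and 28 reached an unadjusted p under 0.05. Line b minus line a was 3.58 for miR-499 (95% interval 2.63 to 4.52, adjusted p = 0.00141 by limma) and 2.22 for miR-190b (1.27 to 3.17, adjusted p = 0.0313 by limma). The other was miR-215, which entered the test only through MCK-PPARa, the group where it was high, with 8 of 12 animals at the floor. Its fitted -2.22 (adjusted p = 0.00612 by limma) is thus set in part by the filter and the floor, and is given as a description. With assays detected in at least 6 animals, the calls were miR-499 and miR-190b. miR-190b stood at -0.67, -1.34 and -1.78 in MCK-PPARa against 0.98, 1.11 and 0.86 in NTGa. It stood at 1.22, 1.26 and 0.72 in MCK-PPARb against 1.42, 0.76 and 1.12 in NTGb, where the groups overlapped. The rat-named assay of miR-190b gave -2.21 in line a and -0.12 in line b. Over 29 alternatives miR-499 was called in 29 and miR-190b in 16. The miR-190b call was lost with the median or endogenous control reference, without scaling, without a detection limit and with replicate number as a block. It was also lost without any 1 of NTGa replicates 1, 2 and 3 or MCK-PPARa replicates 2 and 3. The same held without NTGb replicate 3 or either of MCK-PPARb replicates 1 and 2. For miR-215, NTGa and MCK-PPARb stood wholly at the floor, so its fitted difference has no measured size.

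**Figure D5:**
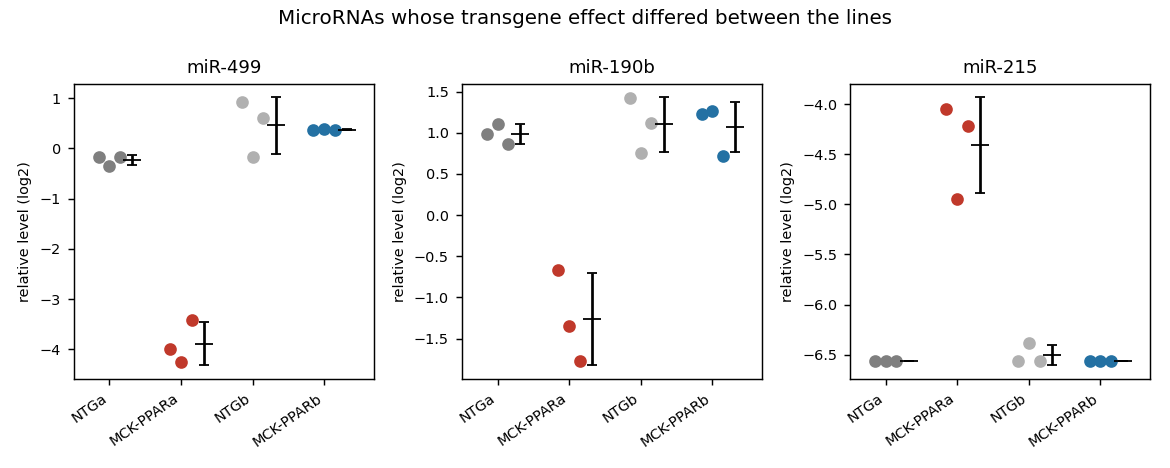
Relative level (log2) by animal, with group mean and SD (n = 3), of the 3 microRNAs with an adjusted p under 0.05 for the difference between the lines. MCK-PPARa stands apart from the other 3 groups in each panel, and the lowest miR-215 values, at -6.56, are the floor.

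The 4 assays that separated in opposite ways were miR-30d, miR-202-3p, rno-miR-339-3p and miR-709. miR-30d was lower in line a (-0.51) and higher in line b (0.34), and rno-miR-339-3p the reverse (0.98 and -0.91), while the mouse-named miR-339-3p assay gave -0.06 and -0.52. miR-202-3p gave -1.52 and 1.08, with 2 MCK-PPARa animals at the floor, and miR-709 gave 0.12 and -0.39. None passed the test of the difference between the lines, and their common effects lay between -0.22 and 0.04.

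Of 12 tested microRNAs from a list tied to lipid and energy metabolism, 7 were higher in both lines and 0 lower in both. In that list 1, miR-185, was called, and the median was 0.21 against 0.05 over all tested assays. Of all tested assays, 33.6% were higher in both lines, 23.9% were lower in both and 1.12% were called. The list was chosen with earlier results of these data known. miR-378 and its partner strand miR-378*, encoded inside the PPAR coactivator gene Ppargc1b, gave 0.16 and 0.29. The miR-103 and miR-107 pair, linked to insulin sensitivity, gave 0.24 and 0.58. miR-33*, made from an intron of Srebf2, miR-34a and the hypoxia microRNA miR-210 were each higher in line a and lower in line b. Between 5 and 6 of the 12 were higher in both lines with the other references for scaling. Of 9 tested microRNAs tied to muscle regeneration, 4 were higher in both lines, 0 lower in both and none was called. With the median reference 2 of the 9 were higher in both, and the list median of 0.09 became -0.05 without scaling.

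Soleus holds blood, vessels, nerve and connective tissue beside fibres, and in whole muscle fewer cells of a type and less RNA per cell cannot be told apart. The summed linear level of the 2 endothelial markers (miR-126) ran from 367 to 582 in transgenic and from 324 to 691 in non-transgenic animals. That of the 7 leukocyte markers ran from 28.5 to 45.2 and from 31.9 to 51.3, and that of the 5 smooth muscle and fibroblast markers from 32 to 45.9 and from 32.7 to 40.7. These ranges overlapped, and none of the tested markers of these lists was called. Higher in both lines were 0 of 2 endothelial, 1 of 6 leukocyte and 2 of 4 smooth muscle and fibroblast markers, and lower in both were 1, 1 and 0. With U6 the higher counts were 1, 3 and 0. Of the red cell list only miR-451 was on the cards. It ran from 0.414 to 0.961 in transgenic and from 0.243 to 0.508 in non-transgenic animals. Its part in the higher miR-194, miR-192 and miR-185 was not tested.

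For the epithelial markers, the tissue class in which miR-192 and miR-194 are abundant, the summed level ran from 0.0383 to 0.447 in transgenic and from 0.0135 to 1.38 in non-transgenic animals. Only miR-182 and miR-200c of the 8 were tested, both of mixed direction. miR-183 was detected in no animal, miR-141 and miR-200a in 1 non-transgenic animal each, and miR-205 in 1 transgenic animal. The lowest Ct of miR-200a was 27.4. miR-200b was detected in 2 transgenic and 1 non-transgenic animals, and miR-429 in 1 and 2. The liver microRNA miR-122 was detected in 1 transgenic and 0 non-transgenic animals at a Ct of 34.8. The pancreatic miR-216a and miR-217 were detected in none, nor was miR-137. Of the other markers of other organs, miR-375 was detected in 0 transgenic and 1 non-transgenic animals, at a Ct of 34.0. miR-124 was detected in 1 and 2, at a lowest Ct of 31.6. The part of such tissue in the levels of miR-192 and miR-194 was not tested beyond these values. Of 6 tested neural markers 1 was higher in both lines and 2 were lower in both, and none was called.

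The remaining 316 assays were not tested. Of these 220 were detected in no animal and 96 in some, 47 in more transgenic than non-transgenic animals, 27 in more non-transgenic and 22 in equal numbers. In total 8 were detected only in transgenic animals and in both lines, among them miR-138*, miR-582-3p and miR-674 in 3 of 6 animals each. Another 3 were detected only in non-transgenic animals and in both lines, miR-764-5p in 4 of 6, miR-18a* in 3 and rno-miR-758 in 2. These were named after their values were seen. Of the 268 tested, 208 were detected in all 12 animals, 14 passed the filter only through transgenic groups and 9 only through control groups, so a difference in these last 2 sets is partly set by the filter.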

How the data were processed

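Per the file headers, the authors deposited a table of Ct values for each card, 1 Ct per well and not normalized, the Ct being the PCR cycle at which the signal becomes detectable. Per the labels' protocols, total RNA from soleus was isolated with RNAzol B and run with TaqMan chemistry and a FAM label for 40 cycles. The sources used here do not state the software, threshold or baseline. Columns were matched to animals by name, with 0 unmatched. The labels call the replicates biological. P-values of the common effect rest on the spread between these animals together with any difference between the line effects. Those of the difference between lines rest on the spread between animals of a group.

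Wells of an assay were averaged per card, an empty well beside a called one counting as Ct 40. The level of an assay was its Ct subtracted from the card's mean over microRNAs that all 12 animals had (149 for card A, 59 for card B). Values not detected, or under the floor, were set to the lowest level that every animal could measure. The common effect was fitted with limma 3.58.1 in R 4.3.3 on transgene and line, with 9 residual degrees of freedom, and the difference between lines with 4 group means. P-values are two-sided and adjusted over 268 assays, and the script was tested on simulated data. Ct values give no read depth, and precision was limited by the number of animals.

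The comparison, the 21 lists and the rules were chosen with earlier results of these data known, so no pattern here is independent support. Named were the 3 called microRNAs, those of lowest p up to 10 in each direction, the separated ones, the muscle lists, those called for the difference and up to 3 per list. Names outside this rule, such as family members, opposite separations and untested assays, were added after their values were seen. Older assay names were matched to mature strands in RefSeq by general nomenclature, and 29 of 32 matched.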

Additional observations from a re-analysis of the deposited data

Results flagged for a closer look

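For 3 microRNAs the line effects differed in the limma interaction test over 268 assays. Line b minus line a was 3.58 for miR-499 and 2.22 for miR-190b. It was -2.22 as fitted for miR-215, whose size was not measured and whose test is set in part by the floor and the filter, since 8 of 12 animals stood at the floor and only MCK-PPARa brought it past the filter.

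In 62 tests of the 6 animals of 1 genotype, both lines together, 3 values passed the critical value of Dixon's ratio, 0.625. They came from NTGb replicate 2 and NTGa replicate 1. Chance marks about 1 in 20 groups, so a few of the 62 would be marked by chance alone. For miR-1, NTGb replicate 2 stood at 6.50 and the next animal at 7.07, a ratio of 0.755. For miR-196a*, NTGa replicate 1 stood at -5.07 and the next at -5.65, a ratio of 0.969 with most of the others at the floor. For miR-215, NTGb replicate 2 stood at -6.39 and the other 5 at the floor of -6.56, a ratio of 1. With values tied at the floor, the critical value does not apply to the ratios of miR-196a* and miR-215.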

How the results depend on the processing

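The 3 calls of the common effect became 0 with the median reference, U6, no scaling, no detection limit, in line b alone, and without both NTGb replicate 2 and MCK-PPARa replicate 1, a pair chosen after the data were seen. They became 5 in line a alone and 6 with 4 group means, which added miR-499, miR-215 and miR-190b. Leaving out 1 animal gave 0 to 2 calls. The 3 calls for the difference between lines became 1 with the median reference, 7 with U6 and 2 to 6 with 1 animal left out, the 6 without NTGb replicate 2. The 7 assays separated the same way became 2 without scaling, 20 without both animals named above, and 6 to 15 with 1 left out, 13 without NTGa replicate 1 and 15 without NTGb replicate 2; fewer animals separate more easily. Assays of the same sign in both lines stayed between 138 and 160 of 268 to 275 in alternatives that kept the Ct limit of 35 and the filter. The difference in detected assays per animal ran from 1.92 to 13.9 with 1 animal left out and was 1.67 at a limit of Ct 32. Under the other alternatives the counts of calls, of separated assays and of assays of the same sign stayed within 1.5 times. The microRNAs called could still change. With every assay detected in at least 1 animal tested, let-7d was called and miR-185 was not (adjusted p = 0.0550 by limma). Without line as a block miR-192 was not called (adjusted p = 0.381 by limma). Counts of list members higher or lower in both lines moved more, as given beside the lists, and for miR-148 and miR-152 the median of 0.05 became -0.02 with the median reference. No called effect changed sign, and the cause of the other changes was not tested. U6 moved the median of all assays from 0.05 to 0.19. The mean of called wells alone, also added after seeing the data, left 3 calls.

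Animals of the same replicate number correlated between -0.288 and 0.222 in their deviations from group means. With 3 animals per group, these values cannot show whether the replicate numbers pair the animals. With the replicate block the 3 calls became 0 and the 3 differences 1. In assays above Ct 32 the median standard error was 0.396, against 0.169 below Ct 25.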
